A study of Mus musculus with 6 samples.

Results

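Chromatin accessibility at binding sites of the transcription factor SP1 was examined around 5 nuclear receptor genes, Esrrg, Esr1, Rxrg, Nr2c1 and Nr1h4. A site was taken when its midpoint lay inside a gene or within 50 kb of either end, with gene positions from RefSeq (mm10). This rule uses position and no measured value, and it gave 54 of the 9001 listed sites. Of these, 20 were at Esrrg, 15 at Rxrg, 7 at Nr1h4, and 6 each at Esr1 and Nr2c1. The measurements were ATAC-seq, in which the Tn5 transposase inserts adapters into open DNA, on mouse embryonic stem cells of the R1 line (ESC, 3 libraries) and neural progenitor cells (NPC, 3 libraries). Both groups carry the strain label R1, so they stand for 1 line. The labels name no treatment, no genotype beyond the line and no protocol for making the NPC, and do not say whether libraries came from separate cultures. The p-values may therefore measure technical spread.

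Nuclear receptors are transcription factors that share a zinc-finger DNA-binding domain and a ligand-binding domain. Some are switched by small lipophilic ligands such as steroids, bile acids or retinoids, and others are orphans with no established natural ligand. They bind as dimers, or as single molecules, to repeats of a short hexamer and recruit coactivators or corepressors. In embryonic stem cells members of the family take part in the pluripotency network, and in neural progenitors others regulate self-renewal and patterning. SP1 is a zinc-finger factor that binds GC-rich DNA, often at promoters.

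All values per site are the authors' comparison of NPC with ESC, in a table with a mean signal (normalized counts averaged across libraries), a log2 fold change, its standard error (SE) and an adjusted p-value for each site. Positive values mean more accessible in NPC, a direction read from the name of the table. Values of single libraries and their depth were not analysed here, so each site has 1 value per quantity and no SD. The authors' deposited table gave the 54 sites a median signal of 5.58 (0.961 to 38.3), against 5.78 over all listed sites, and the median SE was 0.85. A site counted as risen or fallen at the authors' adjusted p below 0.05. A lower signal can come from fewer cells with the site open or from less opening per cell, which cannot be told apart here. As a check of the labels, 29 of 59 sites at 7 ESC marker genes fell (49.2%) and 12 rose (20.3%), and 17 of 31 sites at 5 NPC marker genes rose (54.8%) and 4 fell (12.9%). Across all listed sites 22.8% rose and 32.6% fell. Single markers were mixed: Nodal had 4 rises and 3 falls, Lefty2 4 of each, and the NPC gene Nr2e1 1 fall and no rise. Nanog, Pou5f1, Sox2, Nes and Pax6 lie outside the listed regions.

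RefSeq (GRCm38.p6) lists 10 transcription start windows for the 5 genes, each running from 250 bases before a start to 50 after it. Of these, 5 windows were overlapped by 4 listed sites, at Esrrg, Rxrg and Nr2c1. No window of Esr1 or Nr1h4 was overlapped. The sequences upstream of 3 such starts, and a stretch of a further Esrrg window, are shown because accessibility at these starts was not called different between the cell types. Each reads 5′ to 3′ on the plus strand, the strand of these genes, in GRCm38.p6. Capitals mark GGGCGG on either strand, the core of the GC box that SP1 recognises.

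Rxrg, chr1:167598112-167598361: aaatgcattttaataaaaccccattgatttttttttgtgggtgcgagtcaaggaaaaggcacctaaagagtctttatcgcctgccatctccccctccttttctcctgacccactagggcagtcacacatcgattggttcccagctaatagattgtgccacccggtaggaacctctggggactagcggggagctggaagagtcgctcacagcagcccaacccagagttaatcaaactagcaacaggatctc
Nr2c1, chr10:94147681-94147930: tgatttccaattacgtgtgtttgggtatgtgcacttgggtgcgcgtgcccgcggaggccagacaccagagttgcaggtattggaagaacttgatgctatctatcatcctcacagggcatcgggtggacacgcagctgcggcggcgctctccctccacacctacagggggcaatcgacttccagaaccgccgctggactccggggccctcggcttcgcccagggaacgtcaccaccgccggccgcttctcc
Esrrg, chr1:187997577-187997826: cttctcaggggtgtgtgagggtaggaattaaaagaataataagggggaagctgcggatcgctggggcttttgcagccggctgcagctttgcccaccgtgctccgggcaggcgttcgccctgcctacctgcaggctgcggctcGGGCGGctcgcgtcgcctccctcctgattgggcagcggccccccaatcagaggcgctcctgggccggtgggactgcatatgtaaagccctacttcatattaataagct
Esrrg, chr1:187652036-187652064: ccctggCCGCCCgccggCCGCCCgccacc

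GGGCGG stood in 2 of the 10 upstream windows of 250 bases, both of Esrrg and both overlapped by a site, with 1 match at chr1:187997577-187997826 and 2 in the stretch printed above. Over all 32851 RefSeq windows of this length 32.7% held it, and 58.4% of the 1290 windows overlapped by a listed site did. The Rxrg and Nr2c1 sequences held no match, which says only that these letters are not in this window, since a site spans 500 bp. They differed in base composition, with 49.2% G or C and 6 CpG for Rxrg and 62% and 20 CpG for Nr2c1. The median window overlapped by a site had 60.8% and 16 CpG. The hexamer AGGTCA, the unit that many nuclear receptors recognise, was found on either strand in 2 of the 10 windows, those of Nr1h4 and of an internal start of Rxrg, against 14% of all windows.

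Accessibility changed in both directions around these genes. Of the 54 sites, 14 rose in NPC (25.9%) and 10 fell (18.5%), while 30 were not called. These calls are those of the authors' deposited table. Over the whole list 22.8% rose and 32.6% fell, and of the 7181 sites within 50 kb of any protein-coding gene 23.1% rose and 30.8% fell. The share of rises was thus close to the background and that of falls below it, a description over 54 sites with no test. The median log2 fold change of the 54 sites was -0.21, against -0.29 for all listed sites and -0.18 for those near protein-coding genes. Falls lay at Rxrg (5), Nr1h4 (3) and Esrrg (2), and no site of Esr1 or Nr2c1 fell, nor did any with a deposited unadjusted p below 0.05. The balance of rises and falls differed by gene: without Esrrg 8 of 34 sites rose and 8 fell, and without Rxrg 11 of 39 rose and 5 fell. Fold changes were also centred on the median of sites at gene ends, with p recomputed from fold change over SE. In that setting 10 of the 54 rose and 10 fell. Under that setting 16.3% of all listed sites rose and 28.8% fell. With p recomputed in that way and no centring, 11 rose and 10 fell, beside 18.8% and 26.5% of all listed sites. Centred instead on the median of all sites with p recomputed, 13 rose and 8 fell, beside 23.1% and 22.8% of all listed sites. Among sites inside the genes, 8 of 29 rose and 3 fell. Of these 29 sites 18 were in Esrrg, with 6 of the rises and 1 of the falls. No share over all listed sites inside genes was computed for comparison.

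**Figure D1:**
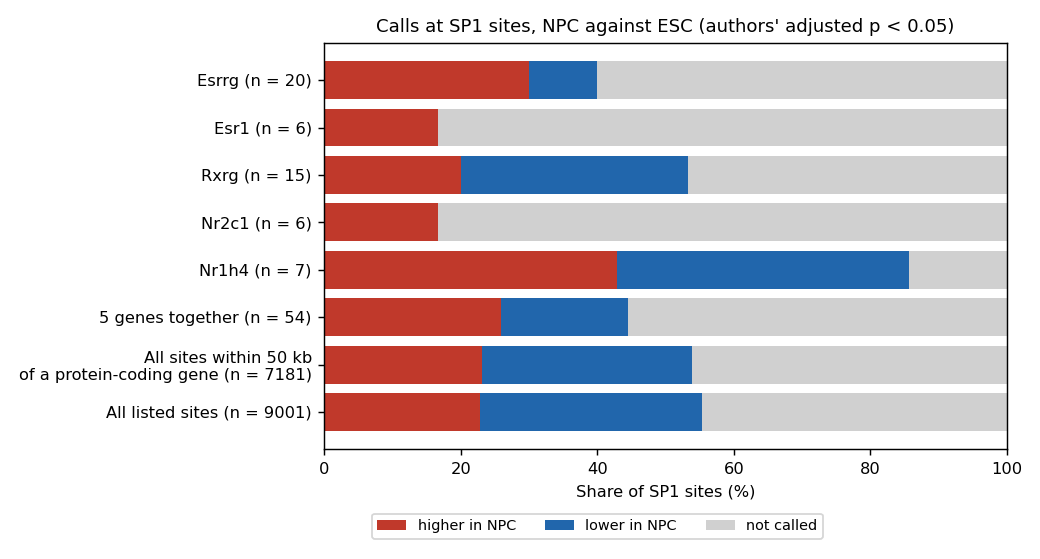
Share of SP1 sites (%, horizontal axis) that were higher in NPC, lower in NPC or not called at the authors' adjusted p below 0.05, for each gene, the 5 genes together and 2 backgrounds, with the number of sites in brackets. Esr1 and Nr2c1 have 1 rise in 6 sites each and no fall, while 6 of the 7 Nr1h4 sites were called.

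Esrrg encodes estrogen-related receptor gamma, an orphan receptor that is active without hormone and promotes oxidative metabolism. The gene spans 606 kb of chromosome 1 (187608510 to 188214885), and its 20 sites lay at 2.83 per 100 kb of the searched stretch. Of these sites 6 rose, all inside the gene, 2 fell and 12 were not called. The strongest rise was at chr1:188118068-188118568, 120 kb downstream of the nearest listed start. The authors' deposited table gave it a signal of 26.8 and a log2 fold change of 5.42 ± 0.84 (SE), or 42.9-fold (adjusted p = 2.41e-09). That fold change ranked 90 from the top of the 9001 listed sites. A second large rise, at chr1:187649772-187650272, stood in the authors' deposited table with 5.32 ± 1.19 (40.1-fold, adjusted p = 1.53e-05). This site lies 1.74 kb upstream of a start, and the next site, 1.93 kb on, overlaps both Esrrg start windows there and start windows of Gm36388 on the opposite strand, and was not called (-0.06 ± 0.46). Some 11.3 kb downstream of the same starts, chr1:187663303-187663803 also rose, and the authors' deposited table gave it 3.69 ± 1.08 (adjusted p = 0.000959).

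The remaining Esrrg rises were smaller or less precise. The authors' deposited table listed them at 3.10 ± 1.38, 1.94 ± 0.77 and 1.86 ± 0.95 (adjusted p = 0.0173, 0.0119 and 0.0382). At an adjusted p below 0.01 these 3 calls were lost. The leading fall was outside the gene, at chr1:187604009-187604509 and 4.25 kb from its 5′ end, and the authors' deposited table gave it -3.50 ± 0.67 (11.3-fold lower, adjusted p = 1.73e-06). The next site, 0.691 kb after the first listed start, was not called (-0.34 ± 0.63). The other fall lay 34.3 kb from the 3′ end, at chr1:188180327-188180827, at a low signal of 2.93, where the authors' deposited table gave -3.21 ± 1.39. It was called with p recomputed from fold change over SE, but not when fold changes were also centred on the median of all sites. Within 23.2 kb of the internal start shown by sequence lay 6 sites, of which the one 22.1 kb upstream rose. The site at that start had -0.31 ± 0.41, and the authors' deposited table placed the 12 uncalled Esrrg sites between -2.24 and 1.31.

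**Figure D2:**
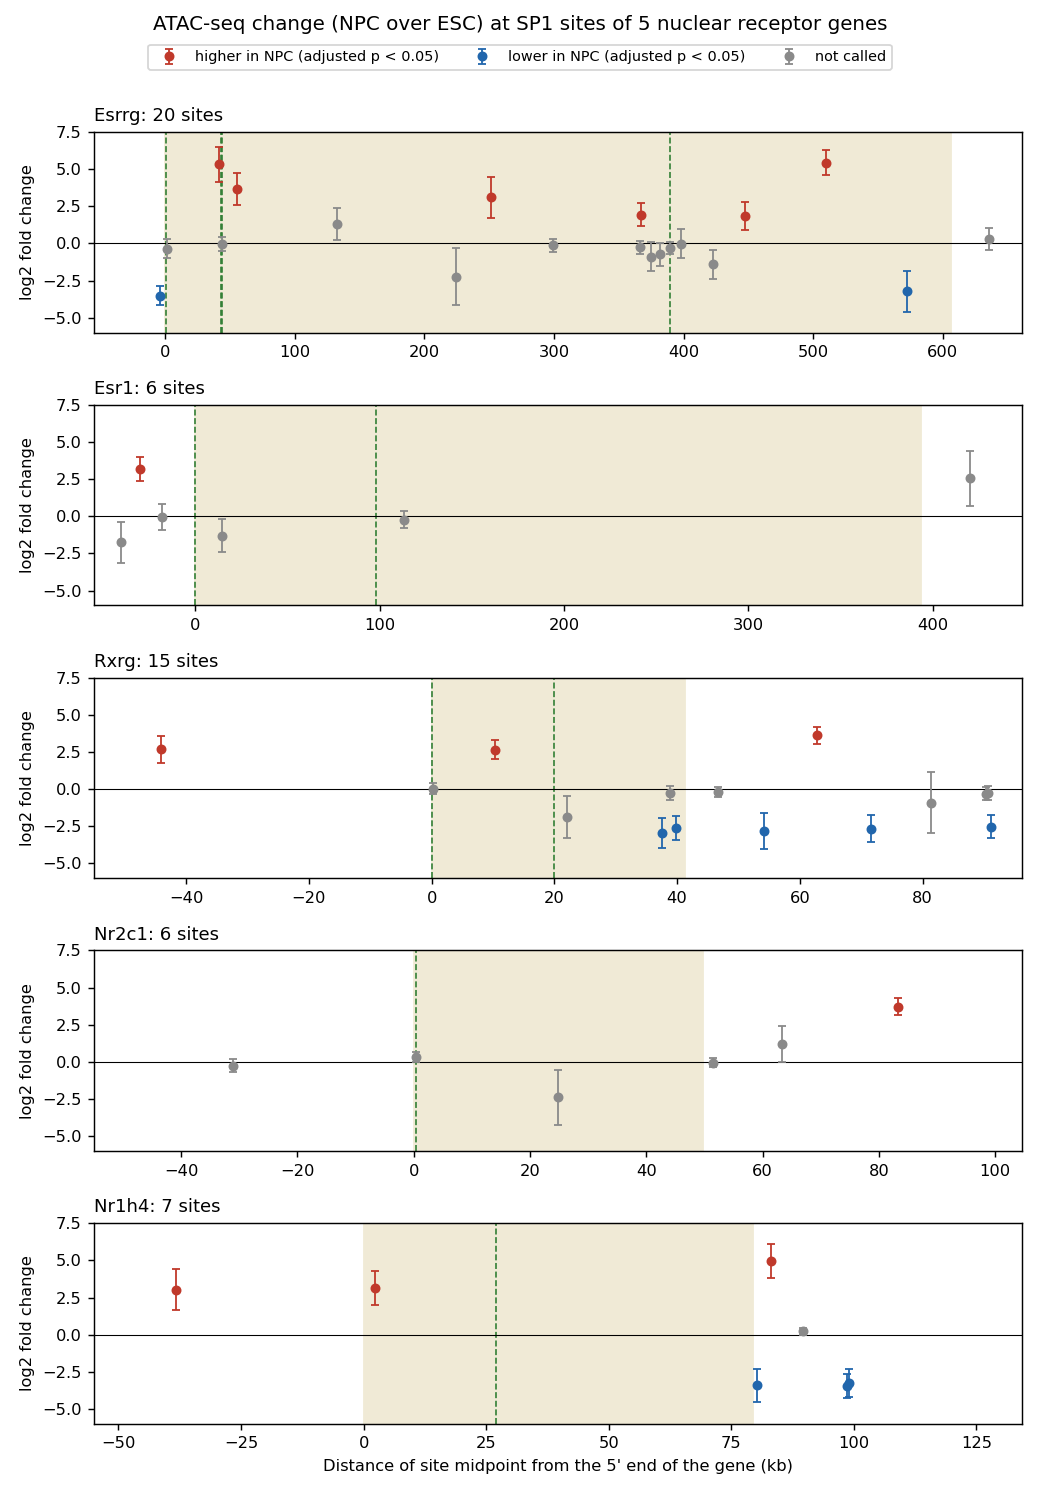
Log2 fold change (NPC over ESC, vertical axis, bars ± SE) of each SP1 site against its distance from the 5′ end of the gene (kb, horizontal axis, scale differs between panels). Shading marks the gene, dashed lines the listed transcription starts, and colour the call at the authors' adjusted p below 0.05. Sites that overlap start windows of Esrrg, Rxrg and Nr2c1 sit close to 0. The Esrrg rise of 5.32, 1.74 kb from a start, is drawn almost on a dashed line. The Rxrg falls all lie at or beyond 37.6 kb.

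Esr1 encodes estrogen receptor alpha, the receptor through which estradiol acts on the reproductive tract, mammary gland, bone and parts of the brain. It spans 394 kb of chromosome 10 (4611989 to 5005633) and had the lowest density of sites, 1.22 per 100 kb. The nearest of its 6 sites to a listed Esr1 start lay 14.6 kb away. The single called site, chr10:4581757-4582257, lay 30 kb upstream of the gene and 17.5 kb from Ccdc170. By the authors' deposited table it rose 9.13-fold (log2 3.19 ± 0.83, adjusted p = 0.000339) at a signal of 7.80. The sites inside the gene were not called, with -1.31 ± 1.11 and -0.23 ± 0.60 in the authors' deposited table. The others ranged from -1.74 to 2.55 at mean signals of 1.47 to 2.45, too low to place them firmly. Just outside the 50 kb limit, 58.1 kb from Esr1 and on the side of Ccdc170, the authors' deposited table listed chr10:4553637-4554137 with 5.86 ± 0.98 (adjusted p = 1.89e-08). That rise was larger than at any of the 54 sites. Of the 6 Esr1 sites 3 were nearest to Esr1, 2 to Ccdc170, among them the called rise, and 1 to Syne1.

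Rxrg encodes retinoid X receptor gamma, a member of the group that serves as dimer partner for many other nuclear receptors. The gene is short, 41.3 kb on chromosome 1 (167598362 to 167639623), and the densest in sites, 10.6 per 100 kb. Of its 15 sites 3 rose and 5 fell. The site over the 5′ start, chr1:167598266-167598766, was not called, and the authors' deposited table gave it 0.03 ± 0.37 at a signal of 13.5. The largest rise, 3.61 ± 0.58 or 12.2-fold, was at chr1:167660964-167661464, 21.6 kb beyond the 3′ end, with a signal of 18.5. The authors' deposited table gave it an adjusted p of 1.71e-08. The authors' deposited table listed a rise of 2.64 ± 0.64 (adjusted p = 0.00016) inside the gene, at chr1:167608408-167608908. It listed a further rise of 2.68 ± 0.91 (adjusted p = 0.00425) at chr1:167553958-167554458, 44.2 kb upstream.

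The 5 Rxrg falls were similar in size, from -2.93 to -2.53, and all lay from the last 3.7 kb of the gene onward. Near the 3′ end, chr1:167635669-167636169 and chr1:167638005-167638505 had -2.93 ± 1.01 and -2.62 ± 0.82 in the authors' deposited table. Between them a site of higher signal (7.42) had -0.26 ± 0.49 and was not called. Further out, to either side of the large rise, the authors' deposited table held falls of -2.80 ± 1.22 and -2.65 ± 0.91, 12.9 and 30.4 kb from the gene. For the last, chr1:167689234-167689734, the authors' deposited table gave -2.53 ± 0.75 (adjusted p = 0.00154). It overlaps a start of Lmx1a, the LIM-homeobox gene of the roof plate and midbrain floor plate, and lies 49.9 kb from Rxrg, just inside the limit. A pair of overlapping sites next to it, inside Lmx1a, had -0.31 ± 0.46 and -0.29 ± 0.47 in the authors' deposited table. Of the 15 sites 5 were nearer to Lmx1a than to Rxrg, among them 2 of the falls.

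Nr1h4 encodes FXR, the bile acid receptor of liver and intestine. It spans 79.4 kb of chromosome 10 (89454234 to 89533645) on the minus strand. Of its 7 sites 3 rose, 3 fell and 1 was not called, and the nearest to the listed start lay 24.7 kb away. This only listed start was 27.0 kb inside the gene, and no start window was listed at the 5′ end. The largest change, at chr10:89450375-89450875 and 3.61 kb beyond the 3′ end, was a 30.5-fold rise. The authors' deposited table gave it 4.93 ± 1.15 (adjusted p = 3.91e-05). At 2.85 kb from it chr10:89453221-89453721 fell, and the authors' deposited table gave -3.42 ± 1.11 (adjusted p = 0.00269). Overlapping sites inside the neighbouring gene Gas2l3, a cytoskeletal linker, fell together, with -3.27 ± 0.94 and -3.44 ± 0.81 in the authors' deposited table. They share sequence, so their values are not independent. The site at the start of Gas2l3 had the highest signal of the 54, 38.3, and the authors' deposited table gave it 0.21 ± 0.26. The other rises were 3.11 ± 1.15 inside Nr1h4, 2.32 kb from its 5′ end, and 3.04 ± 1.39 near Slc17a8, a vesicular glutamate transporter gene, in the authors' deposited table. The latter (adjusted p = 0.0201, mean signal 2.59) was not called with p recomputed from the fold change over its SE. Of the 7 sites 4 were nearer to Gas2l3 or Slc17a8 than to Nr1h4.

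Nr2c1 encodes testicular receptor TR2, an orphan receptor that acts largely as a repressor of transcription. It spans 49.7 kb of chromosome 10 (94147542 to 94197216). Its start site, chr10:94147619-94148119, was not called. The authors' deposited table gave it 0.34 ± 0.32 at a signal of 22.0 (adjusted p = 0.286). The site at the start of the downstream gene Ndufa12, a respiratory complex I subunit, likewise had -0.05 ± 0.28 at a signal of 25.8 in the authors' deposited table. The single called site, chr10:94230625-94231125, rose 13.2-fold. The authors' deposited table gave it 3.72 ± 0.58 (adjusted p = 5.77e-09) at a signal of 19.2. It lay 33.7 kb beyond Nr2c1 and 9.44 kb beyond Ndufa12. The other sites were a Fgd6 site with -0.26 ± 0.42, and low-signal sites inside Nr2c1 (-2.40 ± 1.87) and Ndufa12 (1.21 ± 1.23), as the authors' deposited table lists them. Of the 6 sites 4 were nearer to Ndufa12 or Fgd6.

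Over the 5 genes, 17 of the 54 sites were nearer to another protein-coding gene, and they held 3 of the 14 rises and 4 of the 10 falls. Sites over transcription starts, a grouping chosen after the values were seen, included few called sites. The difference from sites elsewhere was not tested. Of 7 sites that overlapped a start window of any gene 1 was called, the Lmx1a fall, and all 4 sites over starts of the receptor genes themselves were not called (-0.31 to 0.34). Of the 47 sites away from starts 23 were called. Among all listed sites 42.0% of 1146 sites at start windows and 57.4% of 7855 other sites were called, so a lower share at starts was also the general pattern. Start sites had higher signal, a median of 13.5 against 4.81 at the other sites of these genes, and lower SE, so their small changes are the more precisely measured.

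Sites with enough signal fell into separate ranges. At mean signal at or above the median of all listed sites, 13 of 27 sites were uncalled, and the authors' deposited table put their log2 fold changes between -0.31 and 0.34. The 14 called sites had changes of 1.94 or more in size. None of the 27 lay between 0.5 and 1.5 in size, where 22.7% of all 4501 listed sites of that signal did. That background was 36.6% at start windows and 18.6% away from them, and the 27 mix both kinds. The bounds of 0.5 and 1.5 were chosen after the values were seen, and no test was made. Below the median signal, 17 of 27 sites were uncalled, with changes of up to 2.55 in size. The called share of the 5 genes was thus 51.9% at or above the median signal and 37.0% below it. Over all listed sites it was 59.2% of 4501 and 51.6% of 4500, so a lower share at low signal was also the general pattern. Several large fold changes rest on few counts in the cell type with less signal. Taking mean signal as the average of equal groups, the rise at chr1:188118068-188118568 in Esrrg corresponds to signals of 1.22 in ESC and 52.3 in NPC. The Esrrg rise at chr1:187649772-187650272 corresponds to 0.336 and 13.5, and the Nr1h4 rise at chr10:89450375-89450875 to 0.595 and 18.1. At 9 of the 24 called sites the lower group came to less than 1 normalized count by this reckoning. The same share over all called sites of the list was not computed. The reckoning takes the deposited fold changes at face value, and if these were shrunk the lower signals would be smaller still.

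**Figure D3:**
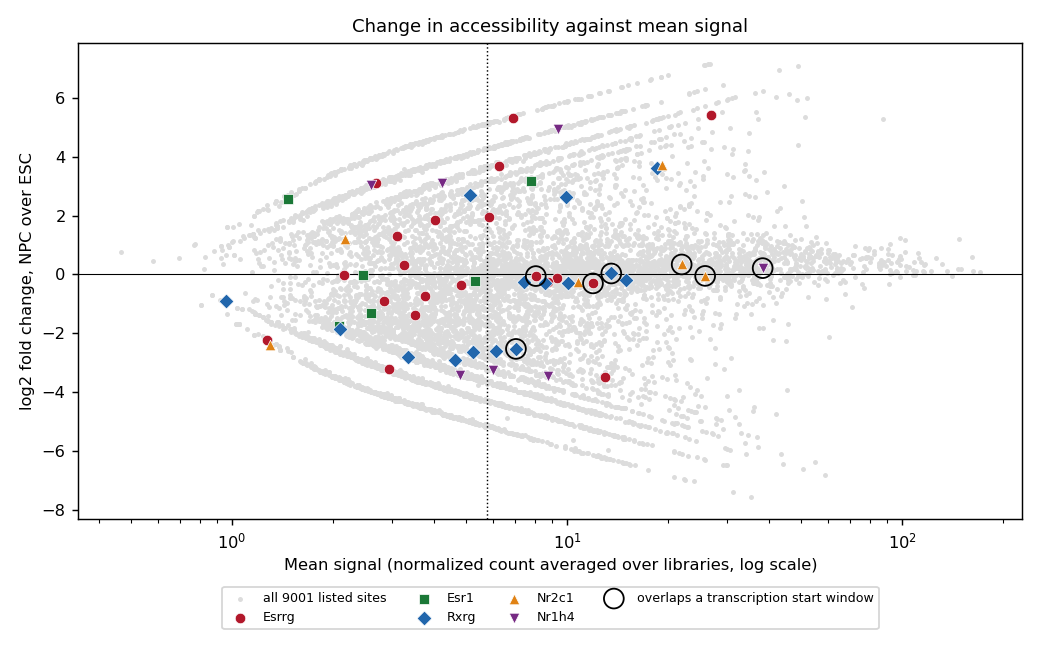
Log2 fold change (NPC over ESC, vertical axis) against mean signal (normalized count averaged over libraries, log scale) for all listed sites (grey) and the 54 sites of the 5 genes (symbols). Circles mark sites over a transcription start window and the dotted line the median signal of all sites. To the right of that line the symbols lie either near 0 or beyond 1.94 in size.

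Calls at neighbouring sites were compared as a description, with no test that the sites of a pair differ. Of 8 pairs of adjacent sites at most 5 kb apart, 5 had 1 called and 1 uncalled site, 1 pair fell together (the overlapping Gas2l3 sites), 1 was uncalled at both and 1 was called in opposite directions (Nr1h4). Over all 1715 such pairs of the table, 38.9% had 1 called site, 29.6% the same call at both, 22.7% none and 8.80% opposite calls. Overlapping sites are included in both counts, and each of the 4 Rxrg pairs shares a site with another Rxrg pair.

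Other members of the family lay in the listed regions in 3 cases of 44, with 25 sites by the same rule. Of these 5 rose, 8 fell and 12 were not called, beside backgrounds of 22.8% and 32.6%. At Nr5a2, the pluripotency receptor LRH-1, 2 of 11 sites rose and 4 fell, and the authors' deposited table ranged from -4.83 ± 0.75, the value of smallest adjusted p, to 5.01. At Nr2e1, which encodes TLX of neural stem cells, 1 of 5 sites fell, with -1.74 ± 0.75 in the authors' deposited table, and none rose. The Nr5a2 sites were also counted for the ESC marker genes, and the Nr2e1 sites for the NPC marker genes. At Nr1i3, the xenobiotic receptor CAR, 3 of 9 sites rose and 3 fell. The authors' deposited table gave its site of smallest adjusted p 0.78 ± 0.22 at a signal of 82.4.

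Among coregulators, 3 of 32 genes were covered, with 1 rise (4.55%) and 8 falls (36.4%) in 22 sites, against 22.8% and 32.6% of all listed sites. Ncoa2, a p160 coactivator gene, held 6 of the falls and the rise in 9 sites (median -2.57), led by -4.50 ± 0.87 at chr1:13103894-13104394 in the authors' deposited table. All 9 Ncoa2 sites also lie within 50 kb of the pluripotency gene Prdm14, so its 6 falls and 1 rise are among those counted for the ESC marker genes. Ncoa7, a further coactivator gene, had 2 falls in 11 sites, the larger -5.73 ± 1.14 in the authors' deposited table, and both sites of the arginine methyltransferase gene Prmt2 were uncalled. Enzymes and carriers of receptor ligands were represented by 10 genes, with 14 rises (28.0%) and 12 falls (24.0%) in 50 sites, against the same backgrounds. At Rdh10, the retinol dehydrogenase of embryonic retinoic acid synthesis, 5 of 8 sites rose and 2 fell, led by 5.74 ± 1.16 in the authors' deposited table. At Hsd17b7, a steroid and cholesterol biosynthesis enzyme gene, 3 of 8 sites rose, the leading one at 2.82 ± 0.52 in the authors' deposited table, and none fell. At Rdh5, the retinol dehydrogenase of the retinal pigment epithelium, 4 of 13 sites rose and 5 fell, at Hsd11b1, whose enzyme regenerates active glucocorticoid, 2 of 6 rose and 1 fell, and at Cyp27a1, a bile acid synthesis gene, 2 of 4 fell. Hsd17b6 and Rdh7 had 1 fall each. The sites of Soat1, and the only site of Rdh1, which is also the only site of Rdh9, were not called.

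**Figure D4:**
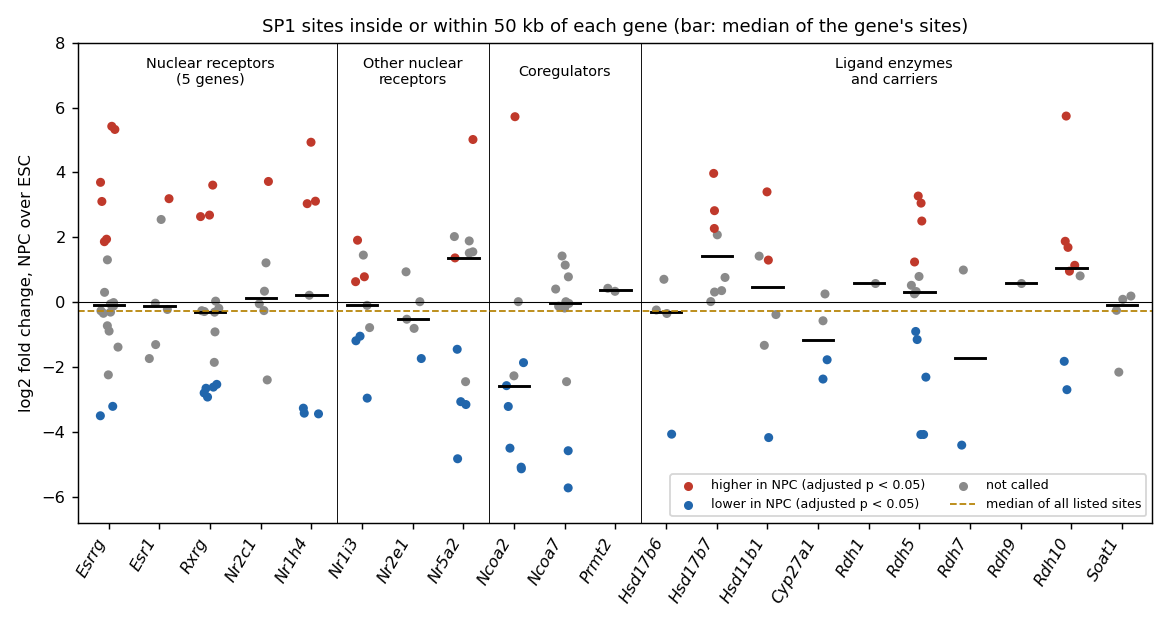
Log2 fold change (NPC over ESC, vertical axis) of every SP1 site inside or within 50 kb of each gene (horizontal axis), grouped into the 5 receptor genes, other nuclear receptors, coregulators, and ligand enzymes and carriers. Points are sites coloured by call, black bars are medians of a gene's sites and the dashed line is the median of all listed sites (-0.29). The 5 receptor genes have medians between -0.31 and 0.21, and Ncoa2 lies lowest at -2.57.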

How the data were processed

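ATAC-seq libraries of ESC and NPC (3 each, grouped by the cell type in the labels) were compared by the authors at SP1 sites. Per the labels' protocols, nuclei of cryopreserved cells were cut with Tn5 made in house. The submitters' processing notes name mm10, BWA 2.1, Picard 2.23.8, MACS2 2.2.7, SAMtools 1.9 and DESeq2, with no settings. The model, the choice of sites and any Tn5 shift are unknown: not given in the sources used here. Per the file headers, the deposited columns are a mean signal (normalized count averaged over libraries), a log2 fold change with its standard error, and a p-value with its adjusted value. No unit was converted. The table lists chromosomes 1, 10 and 11 up to 20195189, and coordinates are printed as deposited (whether they count from 0 or 1 is not stated). A p recomputed from fold change over standard error was at least the deposited p at all 9001 sites (median ratio 2.35), so the deposited fold changes may be shrunk.

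Sites were assigned to genes with RefSeq GRCm38.p6, using Python 3.11.15, pandas 2.3.3, numpy 2.4.6 and scipy 1.17.1. A site could be counted at several neighbouring genes. Named sites were those within 1000 bp of a gene end and the 3 called rises and 3 called falls of smallest adjusted p per gene. Other sites named, the pairs of nearby sites and the motif search were chosen after the values were seen. The genes and lists were chosen with earlier results of these data known. Recomputation of p was tested on simulated fold changes. Of the assignment, only the distance and overlap steps were checked, on small made-up examples. No test between libraries could be run. Alternatives changed the threshold, the p-value, the centring, the distance, the signal filter and the genes. Sequence of the sites themselves was not used here.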

Additional observations from a re-analysis of the deposited data

How the results depend on the processing

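Counts of rises and falls among the sites of the 5 genes (14 and 10 in 54) stayed within 1.5 times under a threshold of 0.01, a required log2 change above 1, recomputed or readjusted p-values, both centrings, a 100 kb limit and 1 site per overlap group. The larger number of rises than falls narrowed or was lost in some settings. It was 10 against 10 when centred on gene ends with recomputed p, 11 against 10 with recomputed p alone and 8 against 8 without Esrrg. Over all listed sites falls were the more frequent call with gene-end centring (28.8% against 16.3%) and with recomputed p alone (26.5% against 18.8%). Centred on the median of all sites with recomputed p, they were not, with 22.8% falls against 23.1% rises. The 5 genes then had 13 rises and 8 falls. The counts moved with the number of sites kept: 9 and 5 in 34 sites within 10 kb, 8 and 3 in 29 sites inside the genes, and 9 and 5 in 27 sites of at least median signal. Falls came to 6 in the 37 sites nearest the receptor gene and to 5 without Rxrg, and rises to 8 without Esrrg. These settings keep fewer sites by construction. The median log2 fold change of -0.21 turned to 0.079 when centred on the median of all sites. It was -0.39 centred on the gene-end median, -0.053 within 100 kb, -0.056 at or above median signal and -0.050 without Rxrg. The Rxrg start site, 0.03, became -0.15 when centred on gene ends and was called in neither case. Of the 21 sites named by rule, 2 lost their call at 0.01, 1 with recomputed p and 1 under each centring with recomputed p. Most of the 21 were picked for small adjusted p, and the Rxrg and Nr2c1 start sites among them had no call to lose. Over all 54 sites, 10 rises and 8 falls were called at 0.01, and 11 and 10 with recomputed p. Precision is lowest at sites of low signal. No paired analysis was possible because the table holds no value per library, and no library could be left out for the same reason.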
